A study of Mus musculus with 18 samples.

Results

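The genes that load the sarcoplasmic reticulum of atrial muscle with calcium and let it out again were followed in left and right atria of mice with and without a change in Zfhx3. The set held 10 genes, named after their roles in the textbook calcium cycle and chosen with earlier results of these data known: Atp2a2, Pln, Ryr2, Ryr3, Itpr1, Casq2, Casq1, Hrc, Trdn and Jph2. Each was matched through its Ensembl gene ID to 1 row of a deposited table of 56691 gene IDs, and all 10 were counted in every library and passed the filter on low counts in every comparison.

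In a heart muscle cell each beat starts when a little calcium enters through the surface membrane and opens ryanodine receptors on the nearby sarcoplasmic reticulum, which releases a larger store of calcium that makes the filaments contract. The muscle relaxes when the calcium pump SERCA2 returns that calcium to the reticulum, with phospholamban holding the pump back until it is phosphorylated. Leak from this store during rest is a well known trigger of extra beats in the atrium, and Zfhx3, which encodes a large zinc finger and homeodomain transcription factor, lies at a locus tied to atrial fibrillation.

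The animals were wild type (WT), Zfhx3 Het or Zfhx3 KO, 3 of each, and the left atrium (LA) and the right atrium (RA) of every animal gave 1 library each of mRNA-enriched RNA. The title IDs name 9 animals, so replicates are separate animals, and no treatment was given. The labels do not give age, sex or strain, which bases of Zfhx3 were altered, or in which cells. The tissue was whole atrium, so fewer cells of a type and less RNA per cell cannot be told apart in any result below.

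The deposited RA columns of WT replicates 1 and 2 held identical counts and were counted as 1 library, which left 17 libraries and n = 2 for WT RA. Library totals ran from 18000583 to 33483085 counts. Xist was at 0.812 to 1.10 CPM (counts scaled to library size) in every WT library and at 576 to 706 CPM in every Het library, where Ddx3y was at 0. KO replicate 1 had the Het pattern and KO replicates 2 and 3 the WT pattern, so sex and genotype cannot be told apart in Het against WT. Zfhx3 was counted at 13.9 to 20.4 CPM in all 17 libraries, which does not check a genotype that alters only part of the gene. All 13 cardiomyocyte markers were detected in every group, with a mean log2 CPM of 11.59 to 11.81 in WT LA, 11.33 to 11.45 in Het LA, 11.40 to 11.59 in KO LA and 10.95 to 11.34 over the RA libraries. WT LA replicate 3 stood apart, with a mean log2 CPM of 5.81 for 8 fibroblast markers, where the remaining pair of WT LA libraries had 6.96 and 7.31, and of 2.18 for 7 macrophage markers, where they had 4.23 and 4.30.

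Levels of the 10 genes spanned more than 3 orders of magnitude, here compared per kilobase of exon (CPM per kb, on GENCODE exon lengths) in WT LA. Atp2a2 led with a mean of 3186 CPM per kb, followed by Hrc at 500.3, Casq2 at 459 and Pln at 337.5. The Hrc range of 452 to 536 CPM per kb overlapped the Casq2 range of 432 to 498, so those neighbours were not separated. Ryr2 came next with 136 CPM per kb, then Trdn with 80.5 and Jph2 with 66.3, whose ranges did not overlap one another. Itpr1 lay far below at 4.745 CPM per kb, and Ryr3 at 0.874 and Casq1 at 0.643 had overlapping ranges at the bottom. In WT RA the order was the same, though there Ryr3, at 4.64 CPM per kb, stood well above Casq1 at 0.820.

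**Figure D1:**
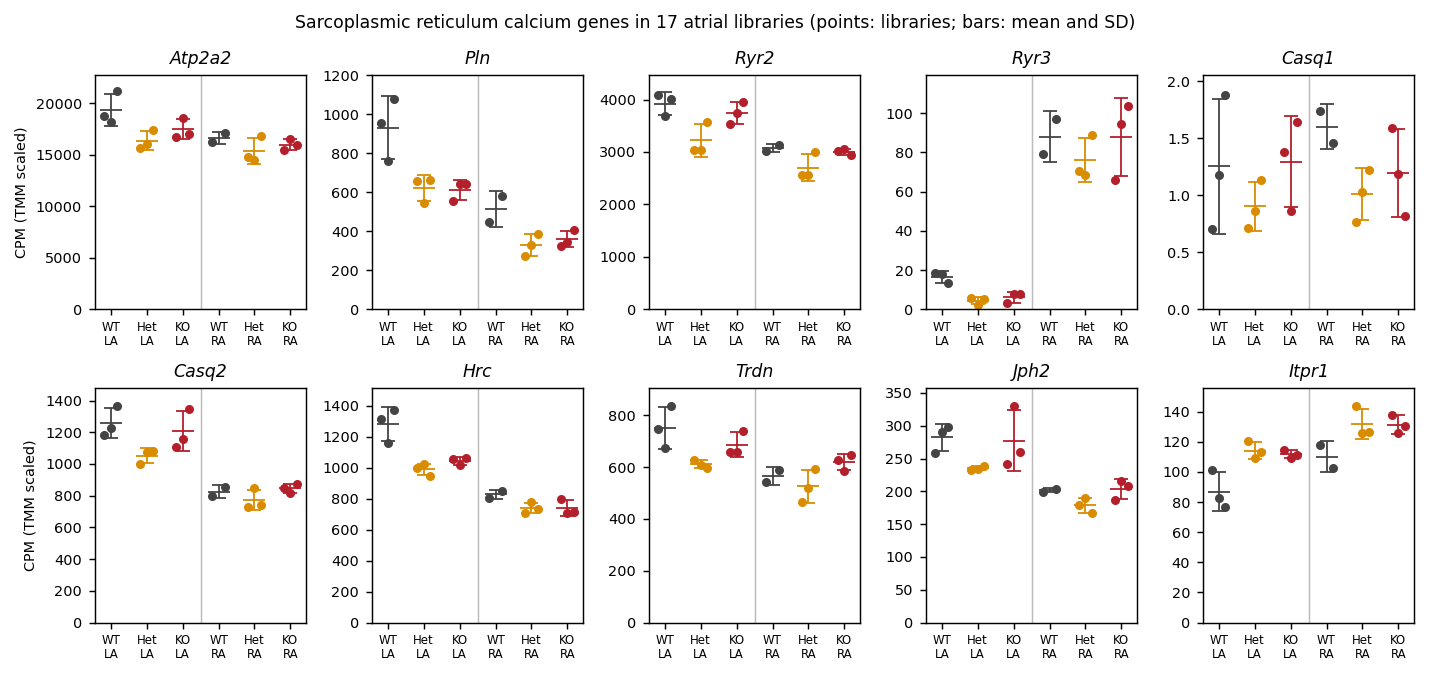
CPM of each of the 10 genes (vertical axis from 0, scaled by the trimmed mean of M values, TMM) in the 6 groups of genotype and atrium; points are libraries, and bars give the mean and SD. Ryr3 is the one gene whose RA libraries, at 65.7 to 103 CPM, all lie far above its LA libraries, at 2.27 to 18.4 CPM, while Pln is lower in the RA than in the LA in each genotype.

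The first comparison asked how the calcium genes differ between the atria within each genotype, where sex does not differ between the groups because both atria come from the same animals. A gene was called when its Benjamini-Hochberg adjusted p in edgeR's quasi-likelihood test was under 0.05 over all genes tested. Ryr3 was called higher in the RA in every genotype, by a wide margin. Pln, Casq2, Hrc and Jph2 were called lower in the RA in every genotype. Atp2a2, Ryr2 and Trdn also had fitted values below 0 in every genotype but were not called in each. In WT, 8 of the 10 genes were called, 2 higher and 6 lower in the RA, where 11.9% of all 18018 genes tested were called in either direction (5.31% higher, 6.56% lower). In Het 1 was higher and 4 were lower, against a background of 7.69% (3.32% higher, 4.37% lower). In KO 1 was higher and 5 were lower, against 8.35% (3.66% higher, 4.68% lower). The median log2 fold change of the 10 genes, RA against LA, was -0.38 in WT, -0.23 in Het and -0.23 in KO, beside a median of all genes of 0.01 in WT and 0.00 in both others. Cardiomyocyte markers moved the same way, with a median of -0.34, -0.30 and -0.27 and 6 of 13 called lower in each genotype. The mitochondrial share of all counts was also lower in the RA of WT, at 19.7% to 21.6% against 24.1% to 26.7% in the LA, while the ranges of the atria overlapped in Het and KO. Of 6 neuronal and Schwann cell markers 4 were tested, with a median of 1.33, 1.10 and 0.82 and 2, 2 and 1 of them called higher in the RA, and the 7 macrophage markers had a median of 0.62, 0.49 and 0.30 with none called. The part of these markers and of the mitochondrial share in the results was not tested. Beside the main scaling, each value was also computed with libraries scaled to these 13 markers, a choice made after seeing the data, which moved the median of all genes to 0.40, 0.35 and 0.34, so that genes at that value moved with the typical gene of the table.

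Promoter sequence was at hand, from RefSeq on GRCm38.p6, for 6 of the 10 genes. The 250 bases before the annotated start are printed for the 4 genes that were called lower in the RA in every genotype, 5′ to 3′ on the gene's own strand, with capitals marking matches to the motifs named below: Pln (chr10:53337436-53337685, plus strand), Casq2 (chr3:102086165-102086414, plus strand), Hrc (chr7:45335019-45335268, plus strand) and Jph2 (chr2:163397994-163398243, minus strand, the more upstream of 2 annotated starts).
Pln: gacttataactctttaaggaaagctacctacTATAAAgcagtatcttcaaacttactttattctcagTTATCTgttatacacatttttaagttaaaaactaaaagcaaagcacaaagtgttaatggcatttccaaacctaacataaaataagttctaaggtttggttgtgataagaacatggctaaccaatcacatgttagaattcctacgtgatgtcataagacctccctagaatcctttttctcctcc
Casq2: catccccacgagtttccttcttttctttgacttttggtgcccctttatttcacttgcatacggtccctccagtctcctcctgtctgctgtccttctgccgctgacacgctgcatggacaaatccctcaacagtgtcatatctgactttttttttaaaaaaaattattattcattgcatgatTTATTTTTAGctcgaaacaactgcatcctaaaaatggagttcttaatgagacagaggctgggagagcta
Hrc: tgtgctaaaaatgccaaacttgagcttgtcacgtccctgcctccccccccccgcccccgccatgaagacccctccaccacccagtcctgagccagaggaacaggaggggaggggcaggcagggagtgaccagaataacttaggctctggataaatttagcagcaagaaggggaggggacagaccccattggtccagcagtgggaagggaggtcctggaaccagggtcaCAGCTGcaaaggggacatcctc
Jph2: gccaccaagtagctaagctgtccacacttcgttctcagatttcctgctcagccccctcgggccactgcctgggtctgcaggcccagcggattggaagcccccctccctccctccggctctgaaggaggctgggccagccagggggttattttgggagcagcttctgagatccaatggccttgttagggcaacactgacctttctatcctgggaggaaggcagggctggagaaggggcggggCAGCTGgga
Matches were sought on both strands in a window that also took in the 50 bases after the start, with positions counted from 1 at the 5′ end. The E-box letters CAGCTG began at base 229 in Hrc, 242 in Jph2 and 259 in Pln, past the bases printed, and they occur in 16.3% of the 32851 promoter windows of the table. Casq2 had no such match and held the MEF2 motif, found in 3.19% of windows, at base 182, where the letters fit it on both strands. Pln also held the GATA letters AGATAA at base 68 on the minus strand, a motif found in 11.2% of windows, and the letters TATAAA at base 32, found in 13.6%. T-box (AGGTGT), M-CAT (by its letters CATTCC), NKX2-5 (TNAAGTG) and CArG box letters were not in these 4 windows. The 4 windows differed widely in base composition, with 36.0% G and C in Pln and 44.7% in Casq2. Hrc had 58.7% and Jph2 63.0%, against a median of 52.7% over the table. The window of Ryr2, called lower in WT and KO only, held no match to any motif named here.

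Of the uptake genes, Atp2a2 (ENSMUSG00000029467, chr5:122453513-122502225 on GRCm38, minus strand) encodes the pump SERCA2 and was the eighth most counted gene of the atria. It stood at 18796, 18183 and 21137 CPM in the WT LA libraries and at 16194 and 17062 CPM in WT RA. It was lower in the RA than in the LA of all 7 animals that could be paired, by a ratio of 0.807 to 0.969. The fitted difference was -0.22 ± 0.09 (log2, SE) in WT, -0.09 ± 0.08 in Het and -0.13 ± 0.08 in KO, none of them called (edgeR adjusted p = 0.137, 0.609 and 0.428). With the animal as a block the WT difference passed (-0.26, adjusted p = 0.0105). Scaled to the cardiomyocyte markers, Atp2a2 was at 0.26 in Het and 0.21 in KO (adjusted p = 0.00797 and 0.0244). The median of all genes under that scaling was 0.35 and 0.34, so Atp2a2 stayed below the typical gene.

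Pln (ENSMUSG00000038583, chr10:53337667-53345987, plus strand), whose product phospholamban restrains the pump, was counted at 956, 758 and 1079.6 CPM in WT LA and at 449.5 and 580.3 CPM in WT RA. It was at 657, 544 and 665 CPM in Het LA against 271, 328 and 383 CPM in Het RA. KO LA held 553, 644 and 641 CPM and KO RA 326, 345 and 408 CPM. In each genotype every LA library was above every RA library, and in all 7 paired animals the RA held 0.412 to 0.636 of the LA level. The difference was -0.85 ± 0.17 in WT, -0.93 ± 0.15 in Het and -0.77 ± 0.15 in KO (edgeR adjusted p = 0.00462, 0.00107 and 0.00428). It was the one gene lower in the RA that was also called in every genotype when libraries were scaled to the cardiomyocyte markers, at -0.47, -0.58 and -0.43 (adjusted p = 0.0128, 0.00197 and 0.0110). Without WT RA replicate 1 the WT value was -0.68 and no longer called (adjusted p = 0.102). The exons of Pln share 64.7% of their bases with opposite-strand genes, mainly Cep85l, and whether counting used strand is not given in the sources used here. Cep85l was counted at 26.2 to 40.7 CPM over the 17 libraries and was not called in any comparison, with a right against left difference of 0.12, 0.07 and 0.17.

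Of the release channels, Ryr2 (ENSMUSG00000021313, chr13:11553102-12106945, minus strand) encodes the main ryanodine receptor of heart muscle. It was at 4090, 3682 and 4002 CPM in WT LA and at 3014 and 3129 CPM in WT RA, and the RA was lower in all 7 paired animals. The difference was -0.35 ± 0.09 in WT, -0.25 ± 0.08 in Het and -0.32 ± 0.08 in KO, called in WT and KO (edgeR adjusted p = 0.0199 and 0.0227) and not in Het (0.0755). In Het it passed with the animal as a block (adjusted p = 0.00441). The WT call was lost without WT RA replicate 1 (-0.33, adjusted p = 0.187) or replicate 3 (-0.39, 0.0882). The KO call was lost without KO LA replicate 2 or 3 or any 1 KO RA library, at -0.33 to -0.26 with adjusted p of 0.0622 to 0.122. Scaled to the cardiomyocyte markers the sign turned, to 0.03 in WT, 0.10 in Het and 0.02 in KO. These values were below the median of all genes under that scaling, at 0.40, 0.35 and 0.34.

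Ryr3 (ENSMUSG00000057378, chr2:112631355-113217096, minus strand), a ryanodine receptor isoform best known from brain and some skeletal and smooth muscles, was at 18.4, 18.2 and 13.2 CPM in WT LA and at 78.9 and 97.2 CPM in WT RA. Het LA held 5.90, 2.27 and 5.18 CPM against 70.6, 68.6 and 88.9 CPM in Het RA. KO LA held 2.99, 7.74 and 7.79 CPM against 65.7, 94.6 and 103 CPM in KO RA. The RA was higher in all 7 paired animals, by 7.39 times in the WT animal, 11.98 to 30.3 times in Het and 12.2 to 22.0 times in KO. The fitted difference was 2.40 ± 0.35 in WT, 4.10 ± 0.38 in Het and 3.83 ± 0.36 in KO (edgeR adjusted p = 0.00107, 2.63e-05 and 2.95e-05), and it was called in every alternative that was run. The lowest library, Het LA replicate 2, still held 63 counts of the gene, and the highest 3059. The neuronal and Schwann cell markers summed to 8.19 to 10.7 CPM in WT LA, 11.4 to 14.5 in Het LA and 12.4 to 16.1 in KO LA, against 27.2 to 29.8, 29.7 to 34.8 and 31.9 to 34.8 in the RA. Among them Dbh, which encodes the enzyme that makes noradrenaline, had a mean of 0.712 CPM in WT LA and 16.1 CPM in WT RA, and Th was at 0 in every library of WT LA, KO LA and WT RA. They thus moved with Ryr3 between the atria, and their part in that difference was not tested. Ryr3 shares 4.83% of its exonic bases with the opposite-strand gene Aven.

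Itpr1 (ENSMUSG00000030102, chr6:108213096-108551109, plus strand) encodes the inositol trisphosphate receptor of type 1, a release channel that opens to a messenger made at the surface membrane and that is found in many cell types besides heart muscle. It was at 101, 82.9 and 76.7 CPM in WT LA and 118 and 103 CPM in WT RA, and was higher in the RA of all 7 paired animals, by a ratio of 1.12 to 1.34. The difference was 0.34 ± 0.10 in WT (edgeR adjusted p = 0.0315), 0.21 ± 0.09 in Het and 0.23 ± 0.09 in KO, the last pair not called (0.186 and 0.126). Both passed with the animal as a block (adjusted p = 0.0126 and 0.00511). Scaled to the cardiomyocyte markers the values in WT, Het and KO were 0.72, 0.55 and 0.57. The median of all genes was then 0.40, 0.35 and 0.34, so Itpr1 stayed above the typical gene. The WT call was lost without WT LA replicate 2 (0.30, adjusted p = 0.111), WT LA replicate 3 (0.25, 0.140), WT RA replicate 1 (0.24, 0.361) or WT RA replicate 3 (0.43, 0.0533). Endothelial markers were higher in the RA as well, with a mean log2 CPM of 6.55 to 6.99 in WT LA and 7.11 to 7.35 in WT RA, and their part in the Itpr1 difference was not tested.

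**Figure D2:**
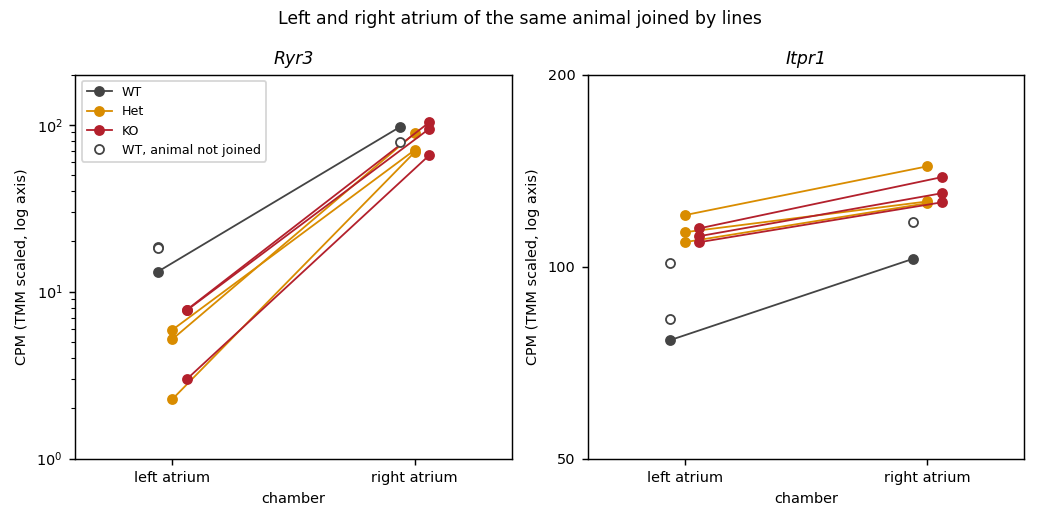
CPM (log axes) of Ryr3 and Itpr1 in the left and right atrium, with the atria of 1 animal joined by a line; open points are WT libraries whose animal could not be joined because of the identical columns. Every line rises to the right, by 7.39 to 30.3 times for Ryr3 and by 1.12 to 1.34 times for Itpr1.

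Among the proteins of the lumen, Casq2 (ENSMUSG00000027861, chr3:102086415-102146514, plus strand), the cardiac calsequestrin that binds most of the stored calcium, was at 1182, 1224 and 1364 CPM in WT LA and 797 and 853 CPM in WT RA. Hrc (ENSMUSG00000038239, chr7:45335290-45338974, plus strand), the histidine rich calcium binding protein that touches both pump and release complex, was at 1317, 1159 and 1376 CPM in WT LA and 806 and 850.4 CPM in WT RA. For both genes every LA library was above every RA library within each genotype. Casq2 differed by -0.61 ± 0.10 in WT, -0.45 ± 0.08 in Het and -0.51 ± 0.08 in KO (edgeR adjusted p = 0.000491, 0.00225 and 0.000673). Hrc differed by -0.63 ± 0.08, -0.42 ± 0.07 and -0.50 ± 0.07 (adjusted p = 9.92e-05, 0.00126 and 0.000237). Scaled to the cardiomyocyte markers, Casq2 was at -0.21, -0.10 and -0.16 and Hrc at -0.24, -0.08 and -0.16, with only Casq2 in WT still called (adjusted p = 0.0408). All genes had a median of 0.40, 0.35 and 0.34 under that scaling, so both genes stayed below the typical gene.

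Casq1 (ENSMUSG00000007122, chr1:172209894-172219868, minus strand), the calsequestrin of fast skeletal muscle, was counted 15 to 53 times per library, or at 0.704 to 1.88 CPM. Its fitted differences between the atria were 0.39 ± 0.38, 0.19 ± 0.35 and -0.13 ± 0.33, and a difference of this size was not detectable at this depth. Skeletal muscle markers were as low, with a mean log2 CPM of -1.64 to -0.94 over all groups, and 8.0% of the exonic bases of Casq1 are shared with an opposite-strand gene.

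At the junction where the reticulum meets the surface membrane, Trdn (ENSMUSG00000019787, chr10:33080554-33476709, plus strand) encodes triadin, which ties calsequestrin to the ryanodine receptor, and Jph2 (ENSMUSG00000017817, chr2:163336242-163397993, minus strand) encodes junctophilin 2, which holds the membranes together. Trdn was at 748, 674 and 836 CPM in WT LA and 542 and 589 CPM in WT RA, and Jph2 at 259, 289.9 and 298 CPM and at 199.6 and 204 CPM. Jph2 differed by -0.48 ± 0.11 in WT, -0.40 ± 0.10 in Het and -0.44 ± 0.10 in KO (edgeR adjusted p = 0.00696, 0.0148 and 0.00620). Trdn differed by -0.41 ± 0.10 in WT (0.0139) and was not called in Het (-0.22, 0.181) or KO (-0.15, 0.418), though Het passed with the animal as a block (0.0267). Without WT RA replicate 1 neither WT call held, at -0.47 for Jph2 (0.0922) and -0.35 for Trdn (0.186), and without Het RA replicate 3 the Jph2 value in Het was -0.35 (0.0699). Scaled to the cardiomyocyte markers, Jph2 was at -0.09, -0.05 and -0.11 and Trdn at -0.02, 0.12 and 0.20, none called. These values were below the median of all genes under that scaling, at 0.40, 0.35 and 0.34.

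With the animal as a block, which the titles allow because both atria carry 1 animal ID, 8 of the 10 genes were called in Het in place of 5, 9 in WT and 7 in KO. Over all genes the block raised the calls from 2139 to 3351 in WT, from 1386 to 2929 in Het and from 1504 to 2863 in KO. The identical columns make the WT blocks depend on which animal the shared RA library came from, and with the other assignment the same numbers of the 10 genes were called.

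**Figure D3:**
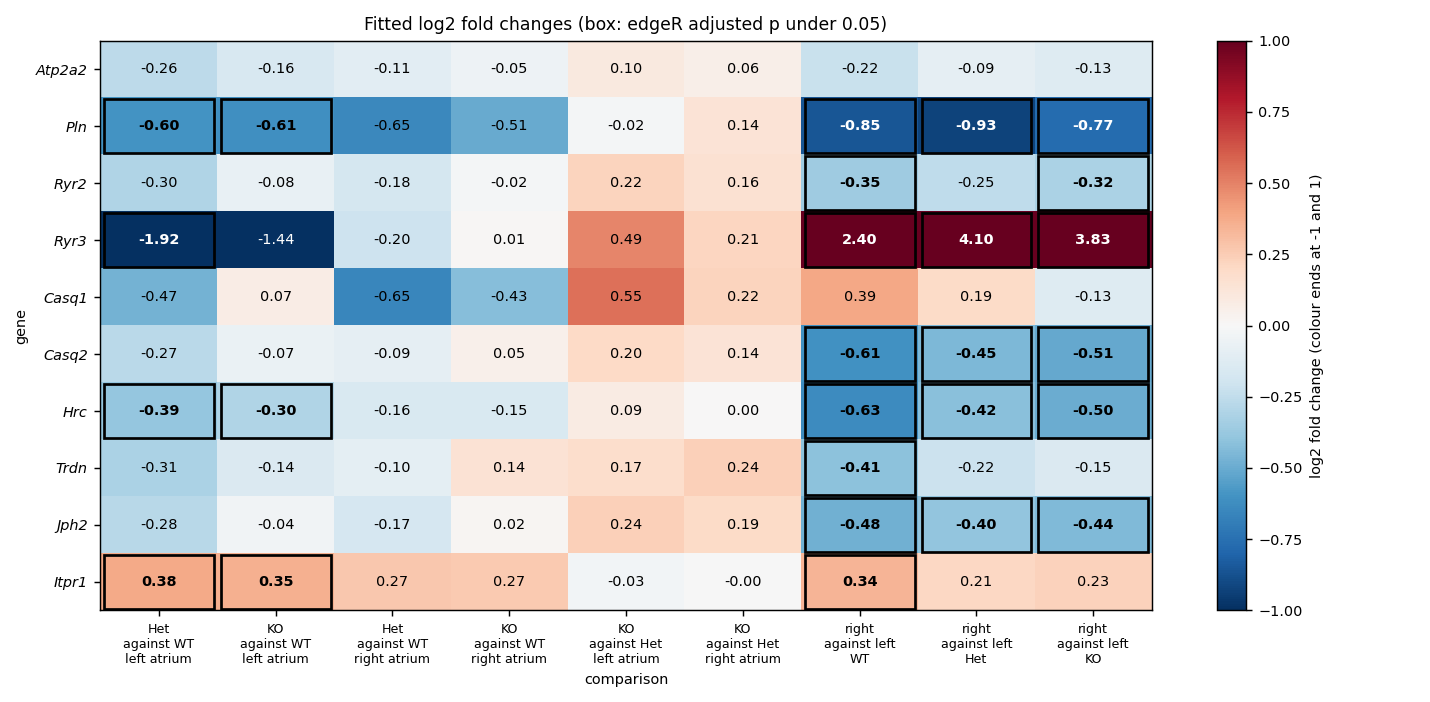
Fitted log2 fold changes of the 10 genes (rows) in 9 comparisons (columns), with blue for lower and red for higher in the first-named group and colour ending at -1 and 1; boxes mark an edgeR adjusted p under 0.05. Boxes fill most of the right against left columns, sit at Pln, Hrc, Itpr1 and Ryr3 in the LA columns, and are missing from the RA genotype columns and from KO against Het.

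The second comparison asked what changed in the LA with Zfhx3 genotype. Pln and Hrc were lower and Itpr1 was higher in both Het and KO than in WT, and Ryr3 was lower in Het. In Het 4 of the 10 genes were called, 3 lower and 1 higher, where 9.40% of the 16974 genes tested were called (5.38% lower, 4.02% higher). In KO 3 were called, 2 lower and 1 higher, where 7.81% were called (4.39% lower, 3.42% higher). The median log2 fold change of the 10 genes was -0.31 in Het and -0.11 in KO, beside a median of all genes of 0.00 in each. Both comparisons use the same WT libraries, so they are not independent of one another. The cardiomyocyte markers had a median of -0.26 in Het with 3 of 13 called lower, and -0.18 in KO with 2 called lower. The 8 fibroblast markers had a median of 0.75 and 0.65, and the 7 macrophage markers a median of 0.56 and 0.43 with none called. The mitochondrial share of all counts was 24.1% to 26.7% in WT LA, 18.6% to 19.7% in Het LA and 19.3% to 22.3% in KO LA, so that WT overlapped neither mutant group. The part of any of these in the calls below was not tested. With libraries scaled to the cardiomyocyte markers the median of all genes moved to 0.32 in Het and 0.20 in KO.

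Pln, given above by library, was lower in all 6 mutant LA libraries than in the 3 WT ones, with means of 931 ± 163 CPM in WT (SD, n = 3), 622 ± 67.6 in Het and 613 ± 52.0 in KO. The difference from WT was -0.60 ± 0.13 in Het and -0.61 ± 0.13 in KO (edgeR adjusted p = 0.0212 and 0.0236). Cep85l, which shares exonic bases with Pln, was at 0.04 and 0.19 in the same comparisons. Both calls were lost without WT LA replicate 3, at -0.46 (adjusted p = 0.0563) and -0.48 (0.0559). Het was also lost without Het LA replicate 2 (-0.51, 0.0821), and KO without KO LA replicate 1 (-0.54, 0.0801) or replicate 3 (-0.64, 0.0705). Scaled to the cardiomyocyte markers, Pln in KO was still called (-0.40, adjusted p = 0.0333) and Pln in Het was not (-0.26, 0.0780). All genes then had a median of 0.20 in KO and 0.32 in Het.

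Atp2a2 was not called, at -0.26 ± 0.10 in Het and -0.16 ± 0.10 in KO (edgeR adjusted p = 0.110 and 0.328). The mRNA counts of Pln were also set against those of Atp2a2 within each library, and no protein was measured. Pln stood at 5.09, 4.17 and 5.11 counts per 100 counts of Atp2a2 in WT LA, at 4.19, 3.40 and 3.83 in Het LA and at 3.30, 3.47 and 3.76 in KO LA. KO and WT did not overlap, while Het replicate 1 lay just above WT replicate 2. The difference in mean log2 ratio was -0.44 in KO and -0.33 in Het, with exact two-sided permutation p of 0.1 and 0.2, where 0.1 is the smallest that 3 against 3 allows. In the RA the WT libraries had 2.78 and 3.40, the Het libraries 1.83, 2.27 and 2.28 and the KO libraries 2.11, 2.10 and 2.56, so that no mutant library reached either WT library. Those differences were -0.54 in Het (exact p = 0.1) and -0.45 in KO (exact p = 0.2). All 4 had a p adjusted over the 12 ratio tests of 0.48. A ratio within a library does not depend on how libraries are scaled.

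**Figure D4:**
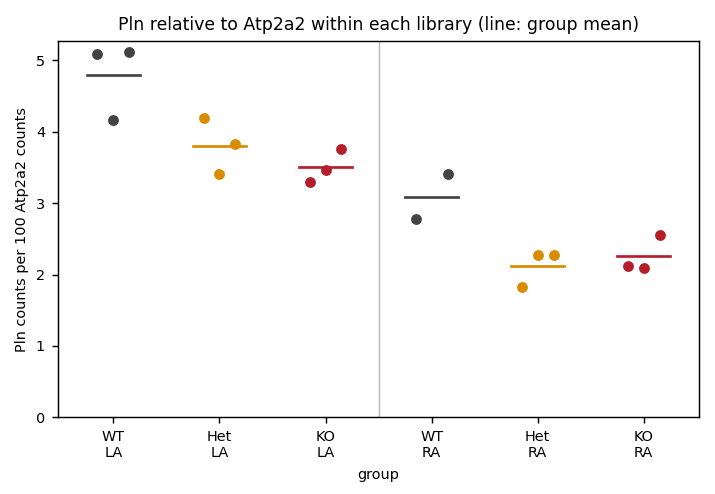
Pln counts per 100 Atp2a2 counts in each of the 17 libraries (vertical axis from 0), by group; lines are group means. WT LA lies between 4.17 and 5.11, KO LA between 3.30 and 3.76, and the mutant RA libraries between 1.83 and 2.56.

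Ryr3, the gene with the largest difference of the 10 between the atria, was also the one with the largest difference in the LA. All 6 mutant LA libraries, at 2.27 to 7.79 CPM, were below the 3 WT libraries, at 13.2 to 18.4 CPM. The difference was -1.92 ± 0.44 in Het (edgeR adjusted p = 0.0366) and -1.44 ± 0.42 in KO, which was not called (0.0794). KO passed with DESeq2 (adjusted p = 0.0333) and with the libraries of both atria in 1 fit (0.0254). The Het call was lost whichever 1 of the 6 libraries was left out, at -2.21 to -1.59 with adjusted p of 0.0613 to 0.0920. The summed neuronal and Schwann cell markers given above stood the other way in the LA, with every mutant library above the WT ones. In the RA, Ryr3 showed no such gap, with -0.20 ± 0.20 in Het and 0.01 ± 0.20 in KO. The difference between the atria in the genotype effect was 1.71 ± 0.51 for Het and 1.43 ± 0.50 for KO, with unadjusted p of 0.00616 and 0.0140 and edgeR adjusted p of 1.0 and 0.995, so it was not called. No gene of 18018 was called in either test of that difference, while 786 and 711 had an unadjusted p under 0.05, and DESeq2 called 1 gene in each.

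Itpr1 was at 120.4, 109 and 113 CPM in Het LA and 115, 109 and 112 CPM in KO LA, all above the highest WT LA library at 101 CPM. The difference was 0.38 ± 0.09 in Het and 0.35 ± 0.09 in KO (edgeR adjusted p = 0.0260 and 0.0378). Scaled to the cardiomyocyte markers it was 0.70 (0.00445) and 0.55 (0.0241). The median of all genes was then 0.32 and 0.20, so Itpr1 stayed above the typical gene. The Het call was lost without any 1 Het LA library, WT LA replicate 2 or WT LA replicate 3, at 0.31 to 0.41 with adjusted p of 0.0635 to 0.0794. The KO call was lost without any 1 KO LA library or the same WT libraries, at 0.28 to 0.37 with adjusted p of 0.0711 to 0.109. Endothelial markers had a mean log2 CPM of 7.05 to 7.35 in Het LA and 6.94 to 7.04 in KO LA against 6.55 to 6.99 in WT LA, and their part was not tested.

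Ryr2 was at 3044, 3037 and 3575 CPM in Het LA, all under the lowest WT library at 3682 CPM, and at 3533, 3734 and 3960.0 CPM in KO LA, within the WT range or just below it. Neither was called, at -0.30 ± 0.09 (edgeR adjusted p = 0.0661) and -0.08 ± 0.09 (0.655).

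Of the lumen genes, Hrc was at 998, 1022 and 949 CPM in Het LA and 1059, 1017 and 1063 CPM in KO LA, all under the WT libraries at 1159 to 1376 CPM. The difference was -0.39 ± 0.08 in Het and -0.30 ± 0.08 in KO (edgeR adjusted p = 0.0180 and 0.0452). Scaled to the cardiomyocyte markers it was -0.06 and -0.09, and with library totals -0.15 and -0.12, none of them called (adjusted p = 0.172 to 0.663). All genes had a median of 0.32 and 0.20 with the markers and of 0.24 and 0.18 with library totals. Hrc thus stayed below the typical gene under both. The Het call was lost without any 1 Het LA library or WT LA replicate 3, at -0.41 to -0.32 with adjusted p of 0.0524 to 0.0614. The KO call was lost without any 1 KO LA library or WT LA replicate 1 or 3, at -0.31 to -0.24 with adjusted p of 0.0810 to 0.140. Casq2 was not called, at -0.27 ± 0.09 in Het (0.0940) and -0.07 ± 0.09 in KO (0.700), and Casq1 was at -0.47 ± 0.38 and 0.07 ± 0.36.

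Trdn and Jph2 at the junction were not called either. Trdn was at 627, 608 and 598 CPM in Het LA, all under the WT libraries, with a difference of -0.31 ± 0.09 (edgeR adjusted p = 0.0505), and at -0.14 ± 0.09 in KO (0.358). Jph2 differed by -0.28 ± 0.11 in Het (0.123) and -0.04 ± 0.11 in KO (0.863). In Het, 8 of the 10 genes thus had LA libraries all below WT, namely Atp2a2, Pln, Ryr2, Ryr3, Casq2, Hrc, Trdn and Jph2, where 15.7% of the 16974 genes tested had all Het libraries below all WT libraries. Of the 8, only Pln, Ryr3 and Hrc were called, where 5.38% of all genes were called lower. Once libraries were scaled to the cardiomyocyte markers, Atp2a2, Ryr2, Casq2, Trdn and Jph2 sat between 0.02 and 0.07 in Het. They stayed below the median of all genes, which was then 0.32.

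**Figure D5:**
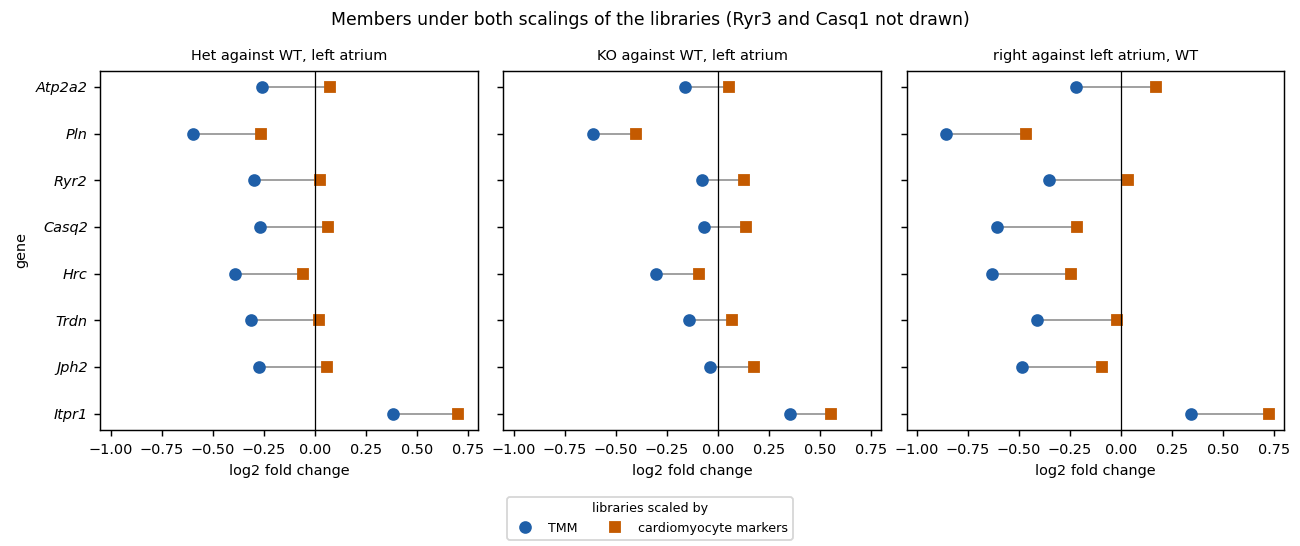
Log2 fold changes of 8 of the 10 genes (horizontal axis) in 3 comparisons with libraries scaled by TMM (circles) or to 13 cardiomyocyte markers (squares); Ryr3 and Casq1 are not drawn. Squares of most genes lie close to 0, while Pln is at -0.26, -0.40 and -0.47 and Itpr1 at 0.70, 0.55 and 0.72. The median of all genes under the marker scaling was 0.32, 0.20 and 0.40 in the same order.

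With the Xist level as a covariate none of the 10 genes was called in either LA comparison. Within a group, the Xist pattern differed only in KO, with 697 CPM in LA replicate 1 and 0.496 and 0.403 CPM in replicates 2 and 3. The covariate thus rests mainly on KO replicate 1, and an effect of sex cannot be told apart from that animal's own deviation. In KO against WT, where both sexes occur in KO, the values were -0.56 for Pln (edgeR adjusted p = 0.0560), 0.34 for Itpr1 (0.0828), -0.31 for Hrc (0.0894) and -1.22 for Ryr3 (0.0824). In Het against WT, where Xist separates the groups, they were -0.40, 0.33, -0.41 and -0.69 with adjusted p of 0.390 to 0.708, and no gene of the whole table was called there.

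The third comparison asked the same in the RA. None of the 10 genes was called in Het or KO against WT, where 0.570% and 0.523% of the 17201 genes tested were called. Pln was at -0.65 ± 0.16 in Het (edgeR adjusted p = 0.117) and -0.51 ± 0.16 in KO (0.193), and DESeq2 called it in both. Itpr1 was at 144, 126 and 127 CPM in Het RA and 138, 126 and 130.3 CPM in KO RA, with 0.27 ± 0.09 in each (0.192 and 0.188). All 6 mutant RA libraries were under both WT libraries for Pln and Hrc and above both for Itpr1. In Het RA, Ryr2, Casq1 and Jph2 were also under both WT libraries in every library. The share of all genes separated in this way was not counted in the RA, so no conclusion is drawn from it. The 8 genes besides Pln and Itpr1 lay between -0.65, for the scarce Casq1 in Het, and 0.14, for Trdn in KO. The genotype effects in LA and RA did not differ by test for any of the 10 genes, with interaction values for Pln of -0.07 ± 0.22 in Het and 0.09 ± 0.23 in KO.

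KO and Het were then set against one another. None of the 10 genes was called in either atrium, and no gene of the table was, though 771 in the LA and 1077 in the RA had an unadjusted p under 0.05 and DESeq2 called 13 and 16. In the LA, Ryr2, Casq2, Trdn and Jph2 stood at 0.22, 0.20, 0.17 and 0.24 (edgeR adjusted p = 0.974 for each), and Pln, Hrc and Itpr1 at -0.02, 0.09 and -0.03. In the RA the same 4 genes were at 0.16, 0.14, 0.24 and 0.19 (0.778 to 0.790).

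Other genes of the same calcium cycle, from a list of 44 of which 38 passed the filter in the LA comparisons, were counted alongside. In Het against WT in the LA, 6 of 38 were called, 4 lower and 2 higher, where 9.40% of all genes were (5.38% lower, 4.02% higher). Tmem38a (-0.43) and Tmem38b (-0.40), which encode counter-ion channels of the reticulum, Cmya5 (-0.46), which encodes an anchor of the junction, and Atp2a1 (-0.93), the pump of fast skeletal muscle, were lower. Sri (0.36), which encodes the calcium sensor sorcin, and Calm2 (0.27), a calmodulin gene, were higher (edgeR adjusted p = 0.0178 to 0.0401 over the 6). In KO only Calm2 of the 38 was called, at 0.27 (0.0413), where 7.81% of all genes were. In the RA none of the 37 tested was called in either genotype. Sln, which encodes sarcolipin, the small pump regulator typical of atria, was at 937, 821 and 756 CPM in WT, Het and KO LA and was not called there. Between the atria it was called in Het, at -0.35 (0.0483). It is named outside the rule for naming genes, after its values were seen.

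Between the atria, Tmem38a was lower in the RA by -0.95, -0.72 and -0.78 in WT, Het and KO (edgeR adjusted p = 2.95e-06, 1.04e-05 and 3.68e-06), with a smaller adjusted p than any of the 10 genes. Cav3, which encodes the muscle caveolin, was lower by -0.60, -0.53 and -0.51, and Hspb6, which encodes a small heat shock protein bound to phosphatase 1, by -0.90, -0.62 and -0.80, all called. Srl, which encodes sarcalumenin of the lumen, was called lower in WT (-0.45) and KO (-0.34). Sri (0.35) and Fkbp1b (1.09), which encodes the small protein that sits on Ryr2, were called higher in WT, Mrln (-1.99) and Ppp1r1a (-0.84) lower and Pde4d (0.37) higher in Het, and Bin1 (-0.63) and Atp2a1 (-0.90) lower in KO. Fkbp1b, at 0.598 CPM in WT LA, and Mrln, at 0.178 CPM in Het RA, rest on few counts. Of the 39 genes of the list tested between the atria, WT had 3 called higher and 7 lower, where 11.9% of all genes were called in either direction. Het had 1 higher and 6 lower, where 7.69% were, and KO 2 higher and 7 lower, where 8.35% were.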

How the data were processed

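Messenger RNA was measured in 18 libraries of atrial tissue. The authors deposited 1 table of raw read counts per gene, unnormalized, with Ensembl IDs. STAR 2.7.9a, DESeq2 1.30.1 and the mm10 build are named in the submitters' processing notes without their roles, and the counting rule, its use of strand and the annotation have no statement in the labels. Symbols were matched by base ID (52073 of 56691 IDs; the rest held 0.418% to 2.63% of a library's counts), and positions and exon lengths come from GENCODE M21 on GRCm38.

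The identical WT RA columns were counted once. Genes passing filterByExpr (minimum count 10) were tested in edgeR 4.0.16 (R 4.3.3) with TMM scaling and the robust quasi-likelihood F test, the 3 genotypes of an atrium in 1 fit and all 6 groups in 1 fit for contrasts between atria. Adjustment was over all genes, with a threshold of 0.05. CPM values are TMM scaled, and log2 CPM uses a prior count of 2. Within-library ratios of 2 genes were compared by exact permutation, 12 tests in all. The fitting script was tested on simulated data.

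The atria of 1 animal deviated together (correlation of deviations 0.120 to 0.411), so animal blocks pair them by the title IDs. Same replicate numbers across genotypes did not (-0.105 to 0.144).

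All 10 genes are named throughout; the genes that followed Hrc most closely are not reported here. Of the other calcium genes, the 6 called with the smallest p per comparison are named. The 10 genes and the lists of markers and calcium genes were chosen with earlier results of these data known. Alternatives were DESeq2 1.42.0, other scalings, no filter, other sets of libraries in the fit, blocks, an Xist covariate, the identical columns as 2 libraries, and leaving out each library.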

Additional observations from a re-analysis of the deposited data

How the results depend on the processing

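Of 26 pairs of a called gene and a comparison, 6 were called under every alternative: Ryr3 between the atria in all 3 genotypes, Pln between the atria in Het and KO, and Casq2 between the atria in WT. Of 84 pairs that were not called, 18 were called under at least 1 alternative and 51 changed sign. In KO LA 1 of the 10 genes was called with only the genotypes compared in the fit, where 662 of all 16517 genes tested were. With Xist as a covariate 0 of the 10 were called there, where 546 of 16974 genes were. In Het LA 7 of the 10 were called with DESeq2, where 2183 of all 15387 genes were. Without the filter 8 were called, where 2786 of 33667 genes were. With Xist as a covariate 0 were called, and no gene of 16974 was. Scaled to cardiomyocyte markers, a setting chosen after seeing the data, 2 were called, where 5555 of 16974 genes were. In the RA DESeq2 called 1 in KO and 1 in Het, where 400 of 13253 and 395 of 14541 genes were called. Without the filter 1 was called in KO and 2 in Het, where 850 and 892 of 33220 genes were. Scaled to cardiomyocyte markers 1 was called in Het RA, where 3290 of 17201 genes were. Between the atria in WT 4 were called scaled to cardiomyocyte markers, where 7957 of 18018 genes were. Each test of a difference in effect called 1 of the 10, Ryr3, without the filter. Of 35976 genes these tests then called 140 for KO and 163 for Het. Leaving out 1 library gave 0 to 2 in KO LA, 0 to 3 in Het LA and 3 to 8 between the atria in WT. Calls were also lost with library totals for Ryr2 and Trdn between the atria in WT, with only the genotypes compared in the fit for Itpr1 in Het LA and KO LA and Hrc in KO LA, and without the filter for Ryr3 in Het LA. The cause was not tested.

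With the replicate block across genotypes, whose numbers pair no animals, 1 of the 10 genes, Pln, was called in KO RA and 1, also Pln, in Het RA, while Hrc in KO LA and Ryr3 in Het LA were not called. Of all 17201 genes tested, that block called 74 in KO RA and 152 in Het RA. The replicate block over the paired atria gave 8 in Het and 8 with the shared WT library assigned to the other animal. Of all 18018 genes, 2929 and 2811 were called there. Ryr2 between the atria turned to 0.0337 in WT and 0.0245 in KO scaled to cardiomyocyte markers, where the median of all genes was 0.40 and 0.34. Ratios near 0 turned sign when 1 library was left out. For Casq2 to Ryr2 the log2 difference from WT ranged from -0.0665 to 0.0527 in KO LA, -0.0380 to 0.0919 in Het LA and -0.0151 to 0.195 in Het RA, and paired by number (replicate block) it was -0.0151 in Het RA. For Casq1 to Casq2 it ranged from -0.151 to 0.454 in KO LA and -0.455 to 0.1501 in Het LA.

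Over all genes, calls ran from 249 to 2993 in KO LA, 0 to 5555 in Het LA, 0 to 909 in KO RA, 0 to 3290 in Het RA, 611 to 7957 between the atria in WT, 952 to 8066 in Het and 1014 to 7934 in KO. Their direction shifted with scaling, least with library totals between the atria in Het and KO. It is given here as higher calls of all calls, first as reported, then with library totals and then scaled to cardiomyocyte markers. These were 581 of 1326, 2734 of 2993 and 1813 of 1957 in KO LA, 682 of 1596, 4293 of 4528 and 5424 of 5555 in Het LA, 41 of 90, 60 of 98 and 484 of 529 in KO RA, and 44 of 98, 174 of 221 and 3224 of 3290 in Het RA. Between the atria they were 957 of 2139, 2880 of 3441 and 7659 of 7957 in WT, 599 of 1386, 691 of 1297 and 7682 of 8066 in Het, and 660 of 1504, 708 of 1411 and 7511 of 7934 in KO. Library totals moved the median of all genes by up to 0.24 on the log2 scale. Depth limits Casq1, at 15 to 53 counts, and n = 2 limits WT RA.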

Other observations

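The genes whose levels followed a member of the list most closely were sought by Pearson's r of log2 CPM over the 17 libraries, among 10330 genes that averaged 5 CPM or more. These values describe libraries that share the atrium, the genotype and the cardiomyocyte marker level, and they carry no test. Ryr3 ran closest to Cacna1d (r = 0.976), which encodes an L-type calcium channel best known from the pacemaker and the atria, then to Epb41 (0.967) and Aqp4 (0.965). Itpr1 ran closest to Atp2b4 (0.979), which encodes a calcium pump of the surface membrane, then to Notch1 (0.959) and Aplp2 (0.957). Pln followed Sort1 (0.969), Tnnt2 (0.964), which is cardiac troponin T and 1 of the 13 cardiomyocyte markers, and Pla2g16 (0.957). Ryr2 followed Myom1 (0.973), a gene of the sarcomere M-band, Etl4 (0.962) and Ndc1 (0.949). Trdn followed Cacna2d1 (0.966), a subunit of the L-type channel, Btbd1 (0.953) and Nexn (0.948). Casq2 followed Ehbp1l1 (0.972), Pkia (0.962) and Smpx (0.956), Jph2 followed Tuba4a (0.958), Plec (0.942) and Mast2 (0.936), and Atp2a2 followed Rab28 (0.945), Lmo7 (0.940) and Lrpprc (0.940). Casq1, near the limit of counting, had no gene above Map2k6 (0.734).

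Among the 10 genes themselves, r over the 17 libraries was 0.930 for Pln with Hrc and 0.916 for Casq2 with Hrc, and Itpr1 ran opposite to Pln (-0.867), Atp2a2 (-0.846) and Hrc (-0.828). Within groups, as deviations from the group means, Pln with Hrc fell to 0.305 and Casq2 with Hrc to 0.395, while Pln with Trdn stood at 0.810 and Ryr2 with Atp2a2 at 0.708.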
